A study of Mus musculus with 12 samples.

Results

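The urea cycle and the nitrogen-handling genes of periportal hepatocytes were followed in mouse liver during and after chemical injury. The set held 9 genes of the 21936 in the expression table, chosen by gene symbol and known function. They were the urea cycle enzymes Cps1, Otc, Ass1 and Asl, the activator gene Nags, the ornithine carrier gene Slc25a15, and Gls2, Sds and Hal, which release nitrogen from amino acids. Each symbol stood on 1 entry of the table, and all 9 genes passed the filter on low counts in every comparison.

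Male C57BL/6 mice (C57BL/6J in the study's methods), bought at 6 weeks of age and kept for 1 week before the injections, had all received carbon tetrachloride (CCl4), a hepatotoxin that injures hepatocytes around the central vein, over 8 weeks, with 2 intraperitoneal injections of 1 mL/kg in each week. Livers of the liver fibrosis group (LFG) were taken at the end of these 8 weeks. For another 4 weeks, 2 tail vein injections a week delivered 200 µL of phosphate-buffered saline (PBS) to the regression group (REG) and, in 200 µL, 250 µg of exosomes from human adipose mesenchymal stem cells to the hADMSCs-Exo group. LFG therefore differs from both other groups in time and age as well as in recovery, and these cannot be told apart. Each group had 3 libraries of liver RNA, 9 in all, and no mice without CCl4 were analysed here. The 3 hADMSCs samples of the 12 in the series were not analysed here. Nothing in the labels says how animals map to libraries, so p-values measure the spread between these libraries, which may be technical.

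The liver removes ammonia by converting it to urea, mainly in hepatocytes near the portal vein, where blood rich in amino acids enters the lobule. N-acetylglutamate, made by Nags, switches on Cps1 in the mitochondrion, Otc joins the product to ornithine that Slc25a15 has carried in, and Ass1 and Asl carry the cycle on in the cytosol. Ammonia that escapes is captured as glutamine by Glul in the innermost pericentral hepatocytes, and periportal glutaminase, Gls2, releases it again.

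In the full comparisons 0 of the 9 genes passed the thresholds for differentially expressed genes (DEGs), a log2 fold change of 1 or more in either direction together with an adjusted p below 0.05 by the edgeR quasi-likelihood test. Of all genes, 0.00811% passed them for hADMSCs-Exo against REG and 0% in both comparisons with LFG. The pattern in the values was led by Hal and Gls2, which lay higher in every REG and hADMSCs-Exo library than in every LFG library. Between hADMSCs-Exo and REG, Otc alone did not overlap, lying lower in every hADMSCs-Exo library. That is 1 of the 9 genes, near the share of all genes without overlap (7.37% lower and 8.14% higher). Slc25a15 was the only one of the 9 with a lower mean log2 CPM in both REG and hADMSCs-Exo than in LFG.

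Total counts ran from 13837445 in LFG 3 to 19840917 in REG 3, and the spread between libraries rather than counting error set the precision of these genes. LFG 3 stood apart from the other LFG libraries: 13924 genes had a count in it, against 15248 in LFG 1, and its chi-square per gene was 258 against LFG 1 and 196 against LFG 2, where LFG 1 and LFG 2 gave 63.0. Summed stellate cell markers (9 of 9 measured) were 1458 and 977 CPM (counts scaled to library size and by TMM) in LFG 1 and 2 but 70.9 in LFG 3, with 226 to 384 in REG and 89.0 to 247 in hADMSCs-Exo. Summed pericentral hepatocyte markers (10 of 10) were 1928 and 4161 CPM in LFG 1 and 2 but 18492 in LFG 3, with 7450.5 to 9287 in REG and 9643 to 14101 in hADMSCs-Exo. In LFG 1, 2 and 3, Cyp2e1 alone held 736, 2325 and 11842 CPM of these sums, and not every marker followed them (Lect2 stood at 200, 134 and 247). The defining hepatocyte genes (7 of 8 measured by name) summed to 85840.2 to 153275 CPM in LFG, 170165 to 178849 in REG and 126093 to 138951 in hADMSCs-Exo, so the tissue label was borne out by its markers. Albumin (Alb) stood at 64145 to 107540 CPM in LFG, 132616 to 139513 in REG and 90384 to 106987 in hADMSCs-Exo, and the collagen gene Col1a1 of stellate cells at 258, 126 and 2.66 in LFG, 16.0 to 28.4 in REG and 5.77 to 12.6 in hADMSCs-Exo. The 5 kidney and gut markers summed to 20.7 to 93.0 CPM in LFG, 26.9 to 75.8 in REG and 28.9 to 36.8 in hADMSCs-Exo, nearly all of it from the gut marker Fabp2, while Slc12a1 and Slc34a1 of kidney were at 0 in all 9 libraries and Umod had 1 count in hADMSCs-Exo 3. The part of these differences in the results below was not tested, and counts of genes called against LFG are given with all 3 LFG libraries and without LFG 3.

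On GRCm38 the 9 genes lie on chromosomes 1, 2, 5, 8, 10, 11 and X, and each has the same start and end in the GENCODE annotation, as a protein-coding gene. Hal (ENSMUSG00000020017; chromosome 10, 93488768 to 93519304, plus strand) and Gls2 (ENSMUSG00000044005; chromosome 10, 128194457 to 128210004, plus strand) share a chromosome. Exons of Gls2 overlap those of Spryd4 on the opposite strand, which held 308 to 698 counts per library, and exons of Sds overlap Plbd2 (804 to 1715 counts) and the antisense gene Gm15690. Nags overlaps the antisense gene Gm11586. The use of strand in counting is not given in the sources used here, so reads in the exons that overlap cannot be assigned to these 3 genes or to their partners.

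RefSeq promoter sequences on GRCm38.p6 were at hand for 5 of the 9 genes, Ass1, Slc25a15, Hal, Nags and Otc. The 250 bases before the start are shown for 3 of them. Hal had the largest fitted log2 fold changes against LFG of the 9, and Slc25a15 went the other way. Otc alone did not overlap between hADMSCs-Exo and REG, a share near that of all genes. Each is read 5′ to 3′ on the strand of its gene, and capitals mark every match to the motifs searched. The Hal window is chr10:93488518-93488767 (plus strand), that of Slc25a15 is chr8:22398622-22398871 (minus strand, from the RefSeq start nearest to the start in the table) and that of Otc is chrX:10252055-10252304 (plus strand).
Hal: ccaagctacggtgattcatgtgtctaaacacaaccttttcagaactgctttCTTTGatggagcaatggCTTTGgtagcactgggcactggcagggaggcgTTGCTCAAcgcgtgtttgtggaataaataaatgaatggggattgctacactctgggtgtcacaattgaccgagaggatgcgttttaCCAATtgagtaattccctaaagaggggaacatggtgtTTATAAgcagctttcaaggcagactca
Slc25a15: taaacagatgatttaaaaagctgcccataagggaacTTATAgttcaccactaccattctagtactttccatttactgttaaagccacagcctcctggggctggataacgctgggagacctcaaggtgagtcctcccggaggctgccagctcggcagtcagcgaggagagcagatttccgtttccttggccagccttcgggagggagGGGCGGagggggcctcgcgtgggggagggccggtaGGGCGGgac
Otc: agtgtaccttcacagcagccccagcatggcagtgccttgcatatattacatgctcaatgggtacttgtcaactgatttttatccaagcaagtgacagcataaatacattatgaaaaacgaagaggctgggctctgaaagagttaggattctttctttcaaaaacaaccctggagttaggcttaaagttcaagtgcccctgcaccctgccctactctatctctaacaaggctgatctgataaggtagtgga
The motifs, searched on both strands, were TATAA (TATA box, in 22.8% of 32851 windows of this length), CCAAT (33.8%), TTGCNNAA (C/EBP, 9.56%), CACGTG (E box, 6.02%), TGACG (cAMP response element core, 17.8%), AGAACA (glucocorticoid response element core, 16.1%), CAAAG (HNF4 core, 48.6%) and GGGCGG (GC box, 32.7%). Hal held TATAA at position -26, counted back from the start, overlapping its match on the other strand at -27, as well as CCAAT at -64, a C/EBP match at -150 and 2 CAAAG matches on the minus strand. Slc25a15 held GC boxes at -44 and -9 and a TATAA match on the minus strand at -214, and the Otc window held none of the 8 motifs. The GC content was 45.6% for Hal, 57.6% for Slc25a15 and 43.6% for Otc, against a median of 52.4% over all windows. These matches describe the letters only.

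Per gene length, Ass1 and Cps1 were the most abundant of the set in each group. In REG the mean FPKM was 1251 ± 118 for Ass1, 711 ± 20.1 for Cps1 and 231 ± 46.9 for Asl (SD, n = 3), none of which overlapped the next. Gls2 (135 ± 30.6), Otc (109.6 ± 5.54), Hal (98.7 ± 14.8) and Sds (85.7 ± 16.3) followed, each overlapping the next, and Slc25a15 (41.0 ± 10.6) and Nags (27.1 ± 1.39) came last without overlap (FPKM, SD, n = 3). The hADMSCs-Exo group had Ass1, Cps1, Asl, Gls2, Hal, Otc, Sds, Slc25a15 and Nags in that order, with overlap between Hal and Otc and between Otc and Sds. In LFG the order was Ass1, Cps1, Asl, Otc, Slc25a15, Sds, Gls2, Hal and Nags, and only Cps1 and Asl, Asl and Otc, and Gls2 and Hal were neighbours whose ranges did not overlap. Cps1 exceeded Ass1 in LFG 1 (1012 against 880.3 FPKM), and without LFG 3 its mean was the higher of the pair. Hal ranked between 412 and 511 among all genes by FPKM in the REG libraries and between 442 and 537 in the hADMSCs-Exo libraries, but between 948 and 1732 in the LFG libraries. Together the 9 genes took 0.545% of all counts in LFG 3 and 0.869% to 1.24% in the other 8 libraries.

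Among the cycle enzymes, Ass1 and Asl were higher in every REG and hADMSCs-Exo library than in every LFG library, whereas Cps1 and Otc overlapped. Cps1 (ENSMUSG00000025991; chromosome 1, 67123026 to 67231259), which makes carbamoyl phosphate from ammonia and is the entry step of the cycle, stood at 4079, 5449 and 1583 CPM in LFG 1, 2 and 3, at 4096, 4157 and 4261 in REG 1, 2 and 3 and at 5302, 5004 and 3665 in hADMSCs-Exo 1, 2 and 3. LFG 3 was the lowest of the 9 libraries and LFG 2 the highest, so the fibrosis group spanned both recovery groups. The log2 fold change was 0.31 (SE 0.50) for hADMSCs-Exo and 0.18 (SE 0.46) for REG against LFG, and it turned to -0.034 and -0.16 without LFG 3. Otc (ENSMUSG00000031173; chromosome X, 10252305 to 10321024), which forms citrulline, stood at 164, 404 and 706 CPM in LFG, at 481, 529 and 465 in REG and at 329.8, 373 and 389 in hADMSCs-Exo. LFG 1 was the lowest and LFG 3 the highest of all 9 libraries, the reverse of Cps1 in LFG 3. Against LFG, its log2 fold change was -0.24 (SE 0.49) for hADMSCs-Exo and 0.20 (SE 0.49) for REG, and 0.36 and 0.83 without LFG 3.

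Ass1 (ENSMUSG00000076441; chromosome 2, 31470207 to 31520672), which joins citrulline to aspartate and brings in the second nitrogen of urea, stood at 1542, 2457 and 2228 CPM in LFG, at 3202, 3527 and 2852 in REG and at 3069, 2815 and 2544 in hADMSCs-Exo. Asl (ENSMUSG00000025533; chromosome 5, 130011258 to 130029247), which splits argininosuccinate into arginine and fumarate, stood at 519, 929.6 and 1012 CPM in LFG, at 1412, 1069 and 1040.0 in REG and at 2085, 1219.9 and 1224 in hADMSCs-Exo. For both genes all 6 recovery libraries lay above all 3 LFG libraries, although the gap was narrow, and scaling by total counts or by the hepatocyte genes closed it in at least 1 comparison.

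The means of the genes that supply the cycle differed from LFG in opposite directions. Nags (ENSMUSG00000048217; chromosome 11, 102145513 to 102149477), whose product N-acetylglutamate is the obligatory activator of Cps1, stood at 48.8, 32.3 and 77.5 CPM in LFG, at 75.0, 88.1 and 81.0 in REG and at 78.7, 64.3 and 81.2 in hADMSCs-Exo. LFG 1 and 2 were the lowest of the 9 libraries and LFG 3 lay among the recovery libraries. Slc25a15 (ENSMUSG00000031482; chromosome 8, 22375551 to 22398597), the mitochondrial ornithine carrier, stood at 419, 444 and 279.9 CPM in LFG, at 167, 295 and 275 in REG and at 233, 296 and 331 in hADMSCs-Exo. Here LFG 1 and 2 were the highest of the 9 and LFG 3 again lay among the others.

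With TMM scaling the largest fold changes against LFG were those of Hal and Gls2, of amino acid catabolism. With the 7 hepatocyte genes as the scale, the mean log2 difference for REG was 1.40 for Hal, 0.84 for Gls2 and -0.95 for Slc25a15, and without LFG 3 that of Slc25a15 (-1.58) exceeded that of Hal (1.36) in size. Hal, histidine ammonia-lyase, which takes the amino group off histidine as ammonia, stood at 94.1, 197 and 298 CPM in LFG, at 596, 662 and 480.2 in REG and at 542, 443 and 478 in hADMSCs-Exo. Its 3 LFG libraries were the lowest of the 9, with a gap to the next value that held with LFG 3 included. Gls2, the liver glutaminase, stood at 133, 235 and 340.5 CPM in LFG, at 400.4, 641 and 449.6 in REG and at 419, 506 and 438 in hADMSCs-Exo. It was again lowest in the 3 LFG libraries, and the groups did not overlap under any of the 4 scalings (TMM, RLE, total counts and hepatocyte genes), as was also so for Hal. Sds (ENSMUSG00000029597; chromosome 5, 120476526 to 120483932), serine dehydratase, stood at 58.1, 136 and 168 CPM in LFG, at 129, 192 and 141 in REG and at 97.8, 147 and 184 in hADMSCs-Exo. Only LFG 1 lay below the other 8 libraries, and the groups overlapped.

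**Figure D1:**
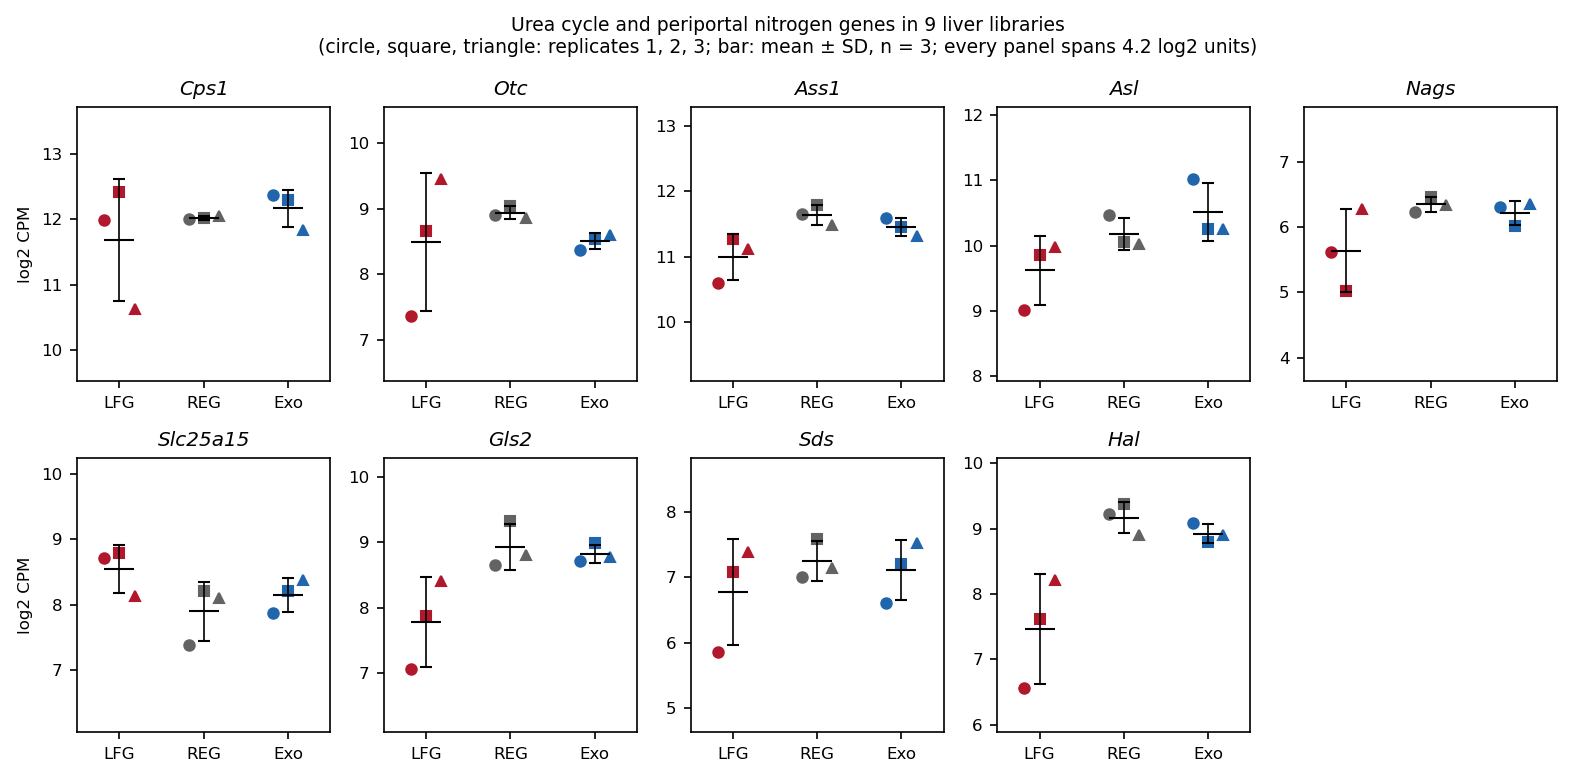
Log2 CPM (y axis) of each of the 9 genes in the LFG, REG and hADMSCs-Exo libraries, with replicates 1, 2 and 3 as circles, squares and triangles and the mean ± SD (n = 3) as bars. Hal, Gls2, Ass1 and Asl lie lower in all 3 LFG libraries than in the other 6, Otc lies lower in hADMSCs-Exo than in REG, and LFG 3 is the lowest library for Cps1 and the highest for Otc.

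The comparison of hADMSCs-Exo with REG asks what the exosomes added to 4 weeks of recovery. Of the 9 genes, 3 were higher and 6 lower in hADMSCs-Exo, and the median log2 fold change was -0.12, against 0.0080 over all 12337 genes tested. With the 7 hepatocyte genes as the scale, the means of 6 genes were higher and of 3 lower, and the median of the mean log2 differences was 0.052, against 0.19 over all genes, where TMM scaling gave -0.13 and 0.0079. The genes called numbered 0 of 9 (0.00811% of all genes were called), and DESeq2 called 0 as well (0.501% of the genes it gave an adjusted p). At an unadjusted p under 0.05 there was 1, Otc, against 10% of all genes (4.69% lower in hADMSCs-Exo). The log2 fold change of Otc was -0.43 (SE 0.14, adjusted p = 0.409 by the edgeR quasi-likelihood test, Benjamini-Hochberg), and over the alternatives its adjusted p ran from 0.193 to 1.00. Otc was also the 1 gene of the 9 whose groups did not overlap, against 7.37% of all genes lower and 8.14% higher without overlap with TMM scaling. So 1 of 9 is near the share of all genes. Otc alone did not overlap with RLE, total counts and the hepatocyte genes as the scale either. Of all genes, 8.23%, 5.71% and 2.87% were then lower without overlap, and 7.6%, 10.3% and 17.8% higher. The mean log2 difference of Otc went from -0.44 with TMM scaling to -0.26 with the hepatocyte genes. The Otc window shown above held none of the motifs searched. The log2 fold change was 0.16 (SE 0.18) for Cps1, -0.19 (SE 0.16) for Ass1, 0.36 (SE 0.25) for Asl, -0.12 (SE 0.13) for Nags and 0.23 (SE 0.23) for Slc25a15. For Gls2, Sds and Hal it was -0.13 (SE 0.19), -0.11 (SE 0.24) and -0.25 (SE 0.16). The median turned to 0.070 without REG 2, the highest REG library for every gene but Cps1 and Asl, and the signs of Gls2 and Sds turned with it.

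The comparisons of REG and of hADMSCs-Exo with LFG ask how the recovering liver differs from the fibrotic liver, and they share the LFG libraries, so their values stand side by side and are not independent. Hal and Gls2 were higher in both recovery groups. Between REG and LFG, Hal had a log2 fold change of 1.56 (SE 0.43, adjusted p = 0.333) and Gls2 of 1.07 (SE 0.39, adjusted p = 0.401), both by the edgeR quasi-likelihood test, Benjamini-Hochberg. Between hADMSCs-Exo and LFG the values were 1.29 (SE 0.41) for Hal and 0.93 (SE 0.36) for Gls2, with an adjusted p of 0.805 for both from the same edgeR test. In bulk liver, fewer cells of a type and less RNA per cell cannot be told apart.

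For REG against LFG, 8 of the 9 genes were higher and 1, Slc25a15, was lower (log2 fold change -0.64, SE 0.30), with a median of 0.52 against -0.068 over all 12517 genes. For hADMSCs-Exo against LFG, 7 were higher and 2, Otc and Slc25a15 (-0.43, SE 0.27), were lower, with a median of 0.42 against -0.059 over all 12489 genes. In each comparison edgeR called 0 of the 9 genes (0% of all genes). DESeq2 called 1 for REG, Hal (log2 fold change 1.57, DESeq2 adjusted p = 0.0261), and 0 for hADMSCs-Exo, against 1.81% and 0.422% of the genes it gave an adjusted p. An unadjusted p under 0.05 was reached by 2 of the 9, Hal and Gls2, in each comparison, where the background of genes higher at that level was 4.62% for REG and 2.3% for hADMSCs-Exo. In each comparison Ass1, Asl, Gls2 and Hal were higher without overlap, 4 of 9 genes, against 9.28% of all genes for REG and 6.73% for hADMSCs-Exo. Scaling by total counts moved the median of all genes to -0.27 for REG and -0.18 for hADMSCs-Exo, and the median of the 9 genes to 0.38 and 0.33. With the 7 hepatocyte genes as the reference, Gls2 and Hal alone lay higher without overlap in each comparison, against 2.74% of all genes for REG and 3.13% for hADMSCs-Exo. These 7 genes were uneven within LFG. In LFG 1, 2 and 3, Serpina1c stood at 25.7, 43.4 and 699 CPM and Apob at 3886, 4187 and 3756. The part of single genes in this scale was not tested.

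Without LFG 3, which leaves 2 LFG libraries, the same test called 10.7% of all genes for REG and 5.97% for hADMSCs-Exo. Of the 9 genes it then called 3 for REG, Hal (2.03, SE 0.35, adjusted p = 0.0167), Gls2 (1.47, SE 0.33, adjusted p = 0.0296) and Nags (1.04, SE 0.21, adjusted p = 0.0237), by edgeR with Benjamini-Hochberg adjustment. For hADMSCs-Exo it called 2, Hal (1.74, SE 0.34, adjusted p = 0.0336) and Gls2 (1.31, SE 0.29, adjusted p = 0.0436), and Nags reached 0.88 (SE 0.23, adjusted p = 0.0605, edgeR, Benjamini-Hochberg). Of Cps1, Otc, Ass1 and Asl none was called in this setting, and the log2 fold changes for REG ran from -0.16 for Cps1 to 0.83 for Otc. The 9 genes then had medians of 0.73 for REG and 0.56 for hADMSCs-Exo. With the hepatocyte genes as the scale, the median of the mean log2 differences was 0.051 for REG and 0.096 for hADMSCs-Exo, where all genes tested had medians of -0.77 and -0.55. Their groups did not overlap for 7 genes for REG (6 higher, 1 lower) and 6 for hADMSCs-Exo (5 higher, 1 lower), against 26.3% and 23.9% of all genes higher and 29.2% and 24.9% lower. Scaled by total counts the numbers were 6 for REG (4 higher, 2 lower) and 5 for hADMSCs-Exo (3 higher, 2 lower), against 10.1% and 9.03% of all genes higher and 47.6% and 39.4% lower. With the hepatocyte genes as the scale they were 4 in each comparison (2 higher, 2 lower), against 3.89% and 4.65% of all genes higher and 64.6% and 52% lower. The mean log2 difference of Nags for REG was then 1.03 with TMM scaling and 0.66 with total counts, but 0.31 with overlapping groups when the hepatocyte genes set the scale. With TMM scaling Slc25a15 was the lower one in each, with log2 fold changes of -0.78 (SE 0.27, adjusted p = 0.0790, edgeR, Benjamini-Hochberg) for REG and -0.59 (SE 0.23, adjusted p = 0.146) for hADMSCs-Exo. Scaled by total counts and without LFG 3, Cps1 was also lower without overlap, at 3820 to 4031 CPM in REG and 3411 to 5420 in hADMSCs-Exo against 5621 to 5975 in LFG. The same held with the hepatocyte genes as the scale, with mean log2 differences of -0.90 for REG and -0.58 for hADMSCs-Exo. Whether its groups overlap thus depends on the scaling. With all 6 libraries, total counts turned the fitted log2 fold change of Cps1 for REG to -0.12, while its mean log2 difference was 0.17. LFG 1 and 2 also had the highest summed CPM of stellate cell markers and the lowest of pericentral markers among the 9 libraries. The part of this in the 9 genes was not tested.

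**Figure D2:**
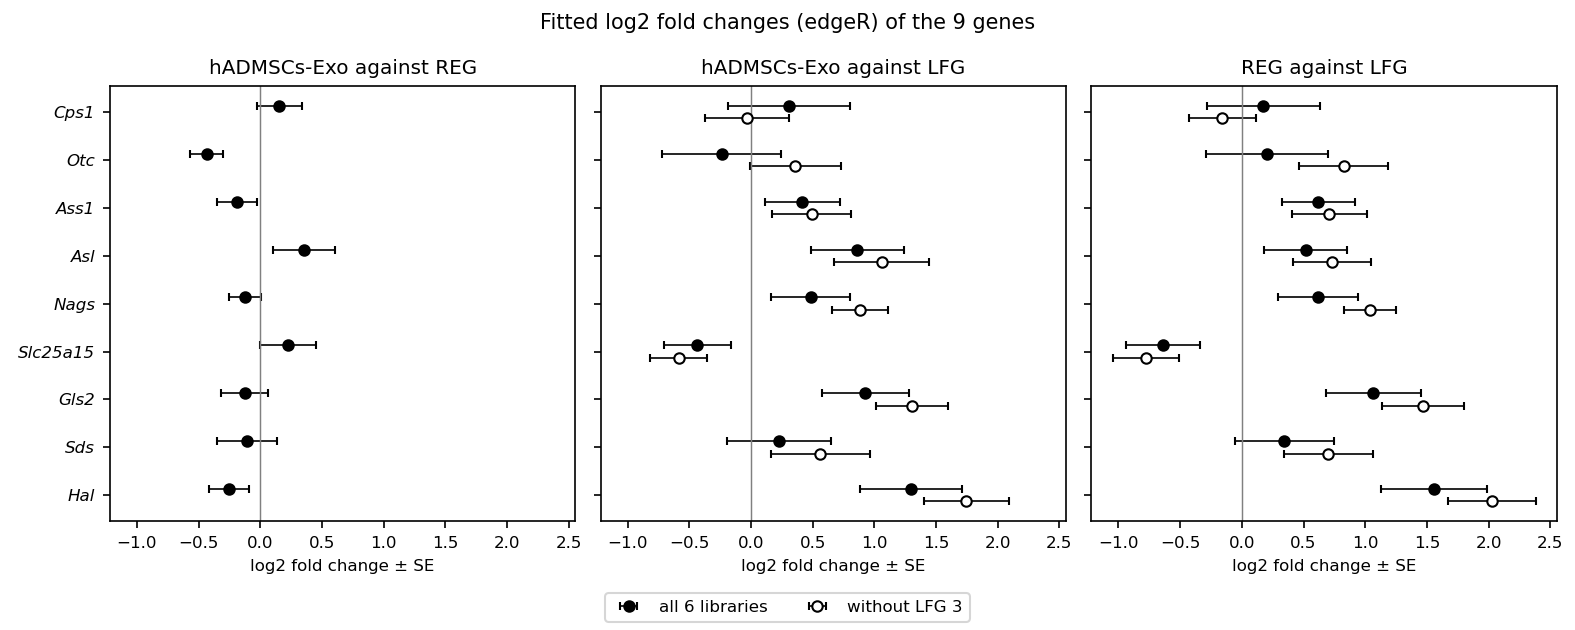
Fitted log2 fold change ± SE (x axis, TMM scaling) of each of the 9 genes (y axis) in the 3 comparisons, with all 6 libraries (filled points) and, against LFG, without LFG 3 (open points). Against LFG, Hal and Gls2 lie farthest to the right and Slc25a15 lies left of 0, and Otc lies at -0.43 for hADMSCs-Exo against REG.

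Glutamine breakdown was set against glutamine synthesis by taking Gls2 minus Glul on the log2 CPM scale within each library. The difference was 0.42, 0.51 and -2.25 in LFG 1, 2 and 3, -0.61, -0.18 and -0.76 in REG 1, 2 and 3 and -0.84, -1.15 and -1.60 in hADMSCs-Exo 1, 2 and 3. All 3 hADMSCs-Exo libraries lay below all 3 REG libraries, and LFG 1 and 2 were the only libraries above 0. The mean was 0.68 lower on the log2 scale in hADMSCs-Exo (-1.20 ± 0.38, SD, n = 3) than in REG (-0.52 ± 0.30), with an exact two-sided permutation p of 0.1, the smallest that 3 libraries against 3 allow. Against LFG the differences were -0.76 for hADMSCs-Exo (exact permutation p = 0.4) and -0.074 for REG (exact permutation p = 1.0). Glul, which makes glutamine from glutamate and ammonia, stood at 99.3, 165 and 1623 CPM in LFG, at 610.4, 727 and 761 in REG and at 752, 1124 and 1332 in hADMSCs-Exo. The gap between hADMSCs-Exo and REG thus went with Glul, whose log2 fold change was 0.61 (SE 0.22), and less with Gls2, at -0.13 (SE 0.19). Without LFG 3 the mean difference of Gls2 minus Glul was -0.98 for REG and -1.66 for hADMSCs-Exo against LFG.

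**Figure D3:**
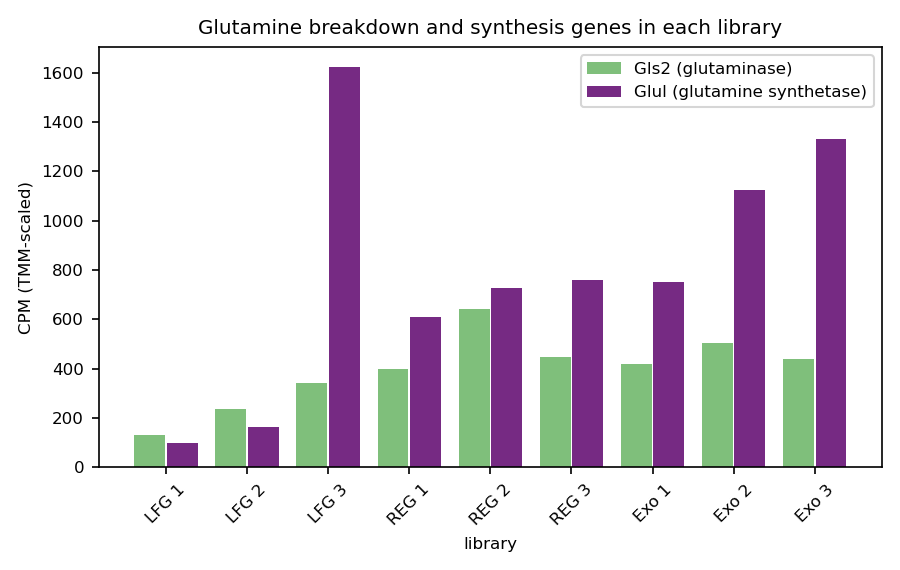
CPM (y axis, from 0) of Gls2 and Glul in each of the 9 libraries (x axis), as bars that each stand for 1 library. Gls2 exceeds Glul in LFG 1 and 2 only, and Glul reaches 1623 CPM in LFG 3 and 752 to 1332 in hADMSCs-Exo.

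Oat and Slc1a2, pericentral ammonia genes like Glul, were also higher in hADMSCs-Exo than in REG, and Slc1a4 was not (-0.25, SE 0.25). Of these 4 tested, 3 were higher at an unadjusted p under 0.05 (5.34% of all genes were), Glul, Oat (1.06, SE 0.19), an aminotransferase that breaks down ornithine, and Slc1a2 (0.80, SE 0.25), a glutamate transporter. Their adjusted p was 0.445, 0.358 and 0.407 by the edgeR quasi-likelihood test, Benjamini-Hochberg. They are also 3 of the 10 pericentral hepatocyte markers, of which 4 reached that level, all higher, the other being Cyp2e1 (0.67, SE 0.19), the cytochrome that activates CCl4. Of the 10 markers, 8 were higher and 2 lower, and their median was only 0.070, against 0.0080 over all genes. Oat stood at 168, 109 and 1372 CPM in LFG, at 412 to 463 in REG and at 724 to 1145 in hADMSCs-Exo. LFG 3 was the highest of the 9 libraries for Glul and for Oat, and 0 of the 4 genes reached an unadjusted p under 0.05 against LFG in either recovery group. Without LFG 3, Glul, Oat and Slc1a2 passed the thresholds in both recovery groups, with log2 fold changes of 2.44, 1.71 and 5.54 for REG and 3.02, 2.74 and 6.30 for hADMSCs-Exo, where Slc1a2 had 19 and 128 counts in LFG 1 and 2. These were 3 of the 4 genes tested for REG and 3 of the 5 tested for hADMSCs-Exo, against 10.7% and 5.97% of all genes called. The additional gene, the ammonia transporter gene Rhbg, gave 2.12 (SE 0.88, adjusted p = 0.164, edgeR, Benjamini-Hochberg). Rhbg had very few counts, 1 and 5 in LFG 1 and 2 and 14, 6 and 13 in hADMSCs-Exo 1, 2 and 3. Slc1a4 was lower in that setting, at -0.80 (SE 0.19, adjusted p = 0.0348, edgeR, Benjamini-Hochberg) for REG and -1.08 (SE 0.27, adjusted p = 0.0590) for hADMSCs-Exo.

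Of the genes that feed the cycle or carry its substrates, Sirt5 and Slc38a3 were lower in hADMSCs-Exo than in REG before adjustment. Of 14 tested of the 15 listed, 0 were higher and 2 lower at an unadjusted p under 0.05 (5.34% of all genes were higher and 4.69% lower), Sirt5 (-0.41, SE 0.17), a mitochondrial deacylase known to act on Cps1, and Slc38a3 (-0.36, SE 0.14), a glutamine transporter of periportal hepatocytes. The list median was 0.0038. Between REG and LFG 3 were higher (4.62% of all genes were) and 0 lower, Car5a (1.68, SE 0.39), the mitochondrial carbonic anhydrase that supplies bicarbonate to Cps1, Slc38a3 (1.17, SE 0.43) and Sirt5 (0.96, SE 0.29), with adjusted p of 0.306, 0.404 and 0.368 from edgeR with Benjamini-Hochberg adjustment. Car5a stood at 8.20, 18.6 and 24.7 CPM in LFG, at 55.2, 59.6 and 49.8 in REG and at 31.2, 43.5 and 49.3 in hADMSCs-Exo. Like Hal, Gls2, Ass1 and Asl, it was lower in every LFG library than in any other. Between hADMSCs-Exo and LFG only Car5a reached that level (1.26, SE 0.40), where 2.3% of all genes were higher. Without LFG 3, 6 of the 14 passed an adjusted p under 0.05 for REG and 4 for hADMSCs-Exo, all higher, against 7.88% and 2.15% of all genes. The list also holds the glucagon receptor gene Gcgr, which does not carry substrates and is counted again among the regulators below.

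Of 25 tested genes of amino acid breakdown outside the set, 0 were higher and 5 lower in hADMSCs-Exo than in REG at an unadjusted p under 0.05, against 5.34% and 4.69% of all genes. These were Amt (-0.53, SE 0.15) of the glycine cleavage system, Haao (-0.55, SE 0.17) of tryptophan breakdown, Cbs (-0.57, SE 0.21) of homocysteine use, Agxt (-0.77, SE 0.30), which handles glyoxylate, and Amdhd1 (-0.42, SE 0.18), of the same histidine pathway as Hal. None passed after adjustment (adjusted p 0.407 to 0.492, edgeR, Benjamini-Hochberg). Uroc1 and Ftcd, also of histidine breakdown, gave -0.080 (SE 0.16) and 0.14 (SE 0.15). Between REG and LFG, Gnmt (1.62, SE 0.54) and Shmt1 (0.70, SE 0.22) of one-carbon metabolism were higher and Tat (-1.12, SE 0.39), tyrosine aminotransferase, was lower at that level (4.62% of all genes were higher and 6.7% lower). Between hADMSCs-Exo and LFG it was Prodh alone (1.16, SE 0.40), proline dehydrogenase, with 2.3% of all genes higher and 3.68% lower. The medians of the list were -0.080, 0.38 and 0.28 for hADMSCs-Exo against REG, REG against LFG and hADMSCs-Exo against LFG. Without LFG 3, 9 were higher and 1 lower at an adjusted p under 0.05 for REG, and 1 was higher and 0 lower for hADMSCs-Exo. The shares of all genes were 7.88% higher and 8.97% lower for REG and 2.15% higher and 4.94% lower for hADMSCs-Exo.

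Among 10 transcription factors and receptors known to act on urea cycle genes, 3 were higher in hADMSCs-Exo than in REG at an unadjusted p under 0.05, Cebpb (0.93, SE 0.23), Foxo1 (0.63, SE 0.19) and Hnf4a (0.43, SE 0.15), where 5.34% of all genes were higher. Their adjusted p was 0.380, 0.407 and 0.432 from edgeR with Benjamini-Hochberg adjustment. Cebpb stood at 88.1, 122 and 156 CPM in LFG, at 68.2, 46.7 and 40.9 in REG and at 119.9, 78.5 and 100.6 in hADMSCs-Exo, so REG was the lowest group, and no gene of the 9 showed that order without overlap. Between REG and LFG, Cebpb (-1.23, SE 0.31), Ppargc1a (-1.63, SE 0.59) and Foxo1 (-0.75, SE 0.19) were lower at that level (6.7% of all genes were), and between hADMSCs-Exo and LFG 0 of the 10 regulators reached it. Without LFG 3, 2 were higher and 3 lower for REG at an adjusted p under 0.05 (7.88% and 8.97% of all genes), and 2 were higher and 0 lower for hADMSCs-Exo (2.15% and 4.94%). The higher ones were Gcgr, the glucagon receptor, and Cebpa in each comparison, with log2 fold changes of 1.29 (SE 0.27) and 1.47 (SE 0.34) for REG and 1.28 (SE 0.29) and 0.96 (SE 0.22) for hADMSCs-Exo. The lower ones in REG were Ppargc1a (-2.06, SE 0.21), Cebpb (-0.98, SE 0.25) and Foxo1 (-0.77, SE 0.18), with adjusted p of 0.0104, 0.0401 and 0.0347 from edgeR with Benjamini-Hochberg adjustment. The list median was then -0.0044 for REG and 0.23 for hADMSCs-Exo.

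Other periportal hepatocyte genes were split in direction. Of 8 tested, 4 were higher and 4 lower in REG than in LFG, with a median of -0.11. At an unadjusted p under 0.05 Aldh1b1 was higher (1.17, SE 0.40), and Pck1, of gluconeogenesis, was lower (-1.26, SE 0.44), each 1 of 8 against 4.62% of all genes higher and 6.7% lower. For hADMSCs-Exo against LFG 5 were higher and 3 lower, with 0 at that level, and against REG Etnppl alone was higher (0.67, SE 0.24), where 5.34% of all genes were. Without LFG 3 the median for REG turned to 0.16, still with 4 higher and 4 lower, and Cdh1 alone passed an adjusted p under 0.05, lower in REG (-1.40, SE 0.34, adjusted p = 0.0344, edgeR, Benjamini-Hochberg), where 8.97% of all genes were lower. For hADMSCs-Exo 6 were then higher and 2 lower, with a median of 0.16, and 0 passed it. The sums of the 8 genes overlapped between all groups, at 2576 to 6463 CPM in LFG, 2696 to 3760.0 in REG and 2415 to 5089 in hADMSCs-Exo.

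**Figure D4:**
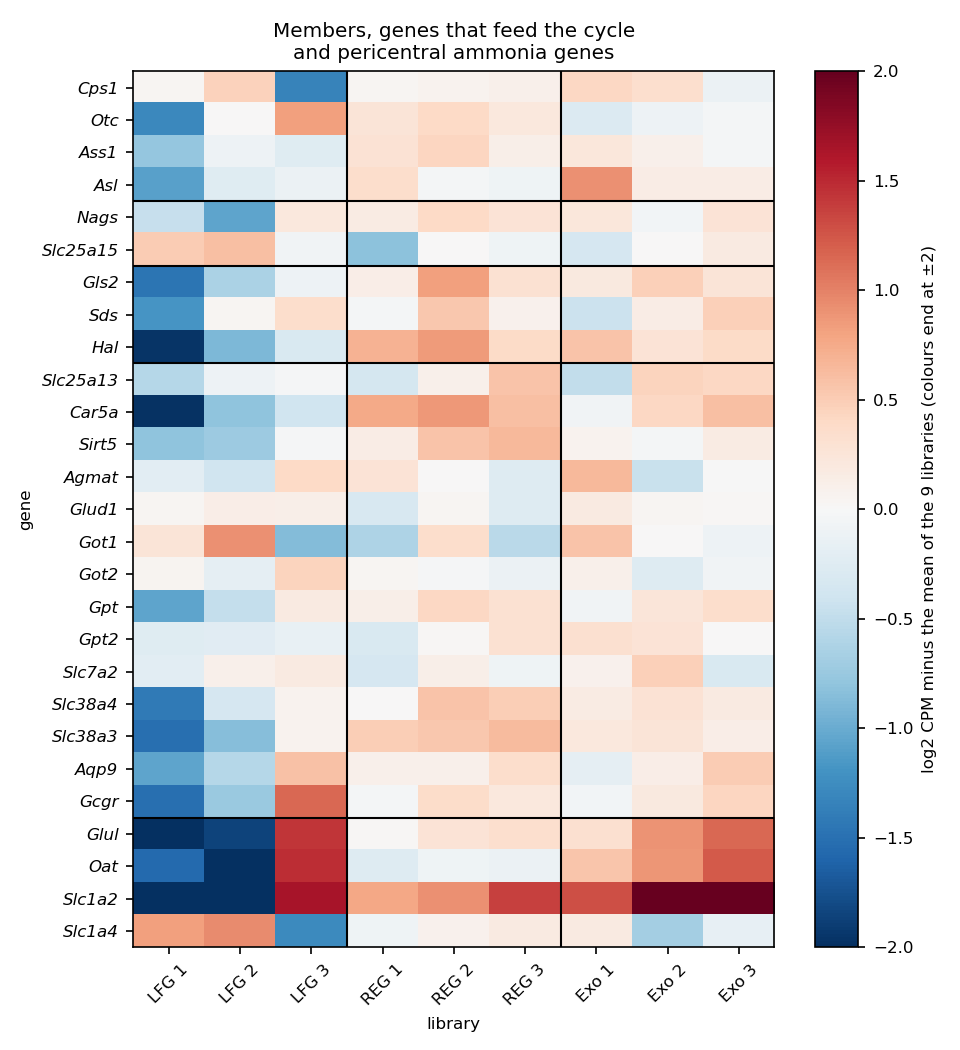
Log2 CPM minus the mean of the 9 libraries (colour, ending at -2 and 2) for the 9 genes, the tested genes that feed the cycle (listed with the receptor gene Gcgr) and the pericentral ammonia genes (y axis) in each library (x axis), with black lines between lists and groups. Hal, Gls2, Car5a, Ass1, Asl, Sirt5, Slc25a13 and Gpt2 lie below the mean in all 3 LFG libraries, some of them only faintly. Glul, Oat and Slc1a2 are blue in LFG 1 and 2 and red in LFG 3.

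Across the 9 libraries, the genes were compared with the mean standardised log2 CPM of Cps1, Otc, Ass1 and Asl, as a description over libraries that share groups and scaling. Pearson's r was 0.968 for Ass1, 0.871 for Asl and 0.562 for Otc but 0.356 for Cps1, all 4 being parts of that mean. Outside it, Hal (0.896) and Gls2 (0.834) followed it most closely among the other 5, Sds and Nags gave 0.582 and 0.402, and Slc25a15 gave -0.604. Taken as deviations from the group means, r was 0.780 for Hal, 0.600 for Gls2, 0.485 for Sds and -0.300 for Slc25a15, while it turned to -0.202 for Nags and fell to 0.0788 for Cps1. On that measure the leading 5 outside the set were Cry2, Sidt2, Pcbp2, Bckdha and Dmgdh (0.957 to 0.942). Among 3588 genes with a mean log2 CPM of at least 5, those with the highest r outside the set were Sidt2 (0.940), Akr1c19 (0.940), Abhd16a (0.919), Pls3 (0.914) and Eef2 (0.914). Without LFG 3 the leading 5 were Cat, Tapt1, Ubap1, Pls3 and Masp1 (0.979 to 0.952), and Cps1 gave 0.470.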

How the data were processed

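The expression table the authors deposited holds raw counts per gene for 9 liver libraries, not normalized, beside FPKM. The deposited FPKM matched counts divided by gene length and by library total within a relative difference of 9.19e-07, and was used for levels between genes and as an alternative. The submitters' processing notes name cutadapt 1.15, HISAT2 2.0.5, HTSeq 0.9.1, DESeq 1.30.0 and GRCm38. The use of strand is not given in the sources used here. RNA was extracted with Trizol, with 3 µg per library.

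Groups of 3 libraries were compared pairwise by edgeR 4.0.16 (R 4.3.3), two-sided quasi-likelihood test, TMM scaling, filterByExpr and Benjamini-Hochberg adjustment over 12337 to 12517 genes. CPM was TMM-scaled, with a prior count of 2 on the log2 scale. Exact permutation tests used scipy 1.17.1. The edgeR step was tested on simulated data. DESeq2 1.42.0, RLE size factors, no low-count filter, a joint fit of all 9 libraries, a replicate block and each library left out were alternatives, and scaling by total counts and the scalings behind the overlap counts and mean log2 differences were chosen after seeing the data. Replicates differed by far more than sampling noise (chi-square per gene of at least 23.4). Deviations of same-numbered libraries correlated at 0.101, 0.308 and 0.179 for hADMSCs-Exo and LFG, all over 0.1, which is the only ground for reading these numbers as pairs, at 0.157, 0.00639 and 0.0374 for hADMSCs-Exo and REG, and at 0.414, -0.200 and 0.306 for REG and LFG.

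The result of 1 gene of the set is not reported here, and counts and medians leave it out. The 9 genes, the gene lists and the tests were chosen with earlier results of these data known. Named beside the 9 genes are those of the lists of cycle partners, amino acid breakdown, regulators and zonal hepatocyte genes with an unadjusted p under 0.05 in a comparison of all libraries, up to 6 in each direction per list, and the nearest 5 by correlation. Marker lists of cell types are given by range and count, with Alb and Col1a1 by value. Slc1a4, Rhbg, Uroc1, Ftcd, Fabp2, Umod, Slc12a1, Slc34a1 and the genes named without LFG 3 (Gcgr, Cebpa, Cdh1 and those by correlation) were named after their values were seen. Of the listed genes Tf had no entry by name and Gcat had 2, and neither was used. Columns for the MSC_E libraries were read as the hADMSCs-Exo samples.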

Additional observations from a re-analysis of the deposited data

How the results depend on the processing

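The counts of genes called stayed at 0 of 9 under the replicate block, which changed no call (with it, the median against LFG was 0.47 in hADMSCs-Exo and 0.55 in REG, and the median of hADMSCs-Exo relative to REG was -0.13), under RLE, no filter, all 9 libraries in one fit and total counts. The exceptions were DESeq2, with 1 for REG against LFG (1.81% of all genes with an adjusted p), and leaving out LFG 3, with 2 (hADMSCs-Exo, 5.97% of all genes) and 3 (REG, 10.7%) against LFG. With 1 library left out at a time the counts ran from 0 to 2 and from 0 to 3, the median for hADMSCs-Exo against REG from -0.17 to 0.070 (without REG 2), that against LFG from 0.39 to 0.56 and that for REG against LFG from 0.27 to 0.73. Genes without overlap against LFG fell to 2 for each group with the hepatocyte genes as the scale. Of all genes, 2.74% were then higher and 7.99% lower without overlap for REG, and 3.13% and 2.61% for hADMSCs-Exo. Without LFG 3 and with TMM scaling they numbered 6 of the 9 for hADMSCs-Exo (23.9% of all genes higher, 24.9% lower) and 7 for REG (26.3% and 29.2%). With the hepatocyte genes as the scale, the median of the mean log2 differences moved to 0.052 for hADMSCs-Exo against REG and, without LFG 3, to 0.051 for REG and 0.096 for hADMSCs-Exo against LFG.

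Gls2 minus Glul for REG against LFG ran from -0.98 to 0.40 with 1 library left out, turning its sign without REG 3, LFG 1 or LFG 2. For hADMSCs-Exo it ran from -0.86 to -0.48 against REG and from -1.66 to -0.28 against LFG. Of the log2 fold changes of single genes under the alternatives, 309 kept their direction and side of the threshold, 6 passed it and 9 turned. For hADMSCs-Exo against REG, Gls2 ran from -0.25 to 0.084 and Sds from -0.33 to 0.10. For hADMSCs-Exo against LFG, Sds ran from -0.11 to 0.56, Cps1 from -0.034 to 0.69 and Otc from -0.62 to 0.36. For REG against LFG, Otc ran from -0.18 to 0.83 and Cps1 from -0.16 to 0.56, with -0.12 by total counts. The cause of these changes was not tested. At the depth of these libraries the spread between libraries, not counting error, limits the 9 genes.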
